A study of Mus musculus with 10 samples.

Results

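Tuft cells are chemosensory cells of the gut epithelium, and 9 genes that mark them are described here in mouse colon. They were chosen by symbol as known tuft cell genes, and all 9 were found among the 56691 genes of the table. Of the 9, 7 had enough counts to be tested and 2, *Gfi1b* and *Il25*, did not. RNA of colon was sequenced as poly(A) libraries from 10 male C57/BL6 mice aged 8 weeks, 5 mice of a DSS group and 5 of a ceAF group, each numbered by group and replicate. All 10 mice drank 3% dextran sulfate sodium (DSS), a polymer that injures the colon epithelium, for 7 days. The ceAF group was then given 15 mL/kg of chick early amniotic fluid (ceAF) by gavage for 10 days, whereas the DSS group was drawn in the study's schedule as receiving water by gavage. No mice without DSS are among these libraries, so the comparison asks whether tuft cell genes differed after ceAF in colon that had been exposed to DSS. The total count per library was 16275884 to 19901549 in DSS mice and 14676471 to 18811795 in ceAF mice.

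Tuft cells are scattered singly among the other epithelial cells and sense luminal compounds through a signalling chain shared with taste cells. In the intestine they are the main source of interleukin-25, which acts on innate lymphoid cells and so feeds a type 2 immune response against worms and protists. Their identity depends on the transcription factor encoded by *Pou2f3*. In whole colon, fewer tuft cells and less RNA per tuft cell cannot be told apart.

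No tuft cell gene passed the test between the ceAF and DSS groups, and several varied widely from mouse to mouse within a group. Of the 7 genes tested, 4 were higher and 3 lower in the ceAF group, and their median log2 fold change was 0.28 against 0.01 over all 16545 genes tested, of which 51.4% were higher. The median was 0.00043 without DSS-5, 0.033 without ceAF-1, 0.10 without DSS-1 and 0.52 without DSS-2, and the signs of *Trpm5*, *Gnat3*, *Plcb2* and *Dclk1* each turned in at least 1 fit that left out a mouse. When p-values of edgeR's quasi-likelihood test were adjusted over all genes by the Benjamini-Hochberg method, 0 of the 7 passed an adjusted p-value of 0.05, as did 0% of all genes tested. At an unadjusted p-value under 0.05 the count was also 0 of 7, where 3.26% of all genes were higher and 3.67% lower. DESeq2's Wald test called 26 genes over the whole table and limma-trend on FPKM called 1 or 5, in 2 runs that differed in both pseudocount and filter, with 0 of the tuft cell genes among the calls of either tool. DESeq2 put 1 of them, *Il17rb*, under an unadjusted p-value of 0.05. The DSS and ceAF mice overlapped in all 9 genes, so that 0 of 7 tested genes had groups that did not overlap, where 1.24% of all genes tested had such groups. With 5 mice against 5, an exact permutation test has 252 assignments and cannot give a p-value below 0.00794. The p-values measure the spread between samples that are labelled as separate mice.

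All 9 genes were scarce in these libraries. On the FPKM scale, which divides the count by the exonic length and can therefore be compared between genes, the median level over the 10 mice was highest for *Avil* at 1.56, followed by *Plcb2* at 0.91, *Dclk1* at 0.77, *Il17rb* at 0.73, *Trpm5* at 0.57, *Gnat3* at 0.53, *Pou2f3* at 0.23, *Gfi1b* at 0.07 and *Il25* at 0. The median of all genes tested was 3.77 FPKM, and 31.3% of those genes had a lower median than *Avil*. In every step of this order the ranges of neighbouring genes over the mice overlapped. Within single mice *Avil* had a higher FPKM than *Plcb2* in 10 of 10, and *Gnat3* than *Pou2f3* in 9 of 10, whereas *Dclk1* was above *Il17rb* in 4 of 10 and those 2 genes were not ordered.

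Among the transcription factors, *Pou2f3* (ENSMUSG00000032015), whose POU-domain protein is required for tuft cells to form, spans 43035234 to 43121666 on the reverse strand of chromosome 9 in the deposited table, whose genome build is not named. All positions from that table are given in this way. The counts of *Pou2f3* were 2, 20, 14, 12 and 2 in DSS-1 to DSS-5 and 17, 4, 13, 10 and 17 in ceAF-1 to ceAF-5. As counts scaled to a common library size by TMM factors (CPM), these were 0.12, 1.00, 0.84, 0.77 and 0.12 in the DSS mice and 1.30, 0.26, 0.71, 0.60 and 0.93 in the ceAF mice. DSS-1 and DSS-5 lay below every ceAF mouse, and the other DSS mice lay within the ceAF range. The means were 0.57 ± 0.42 and 0.76 ± 0.39 CPM (SD, n = 5 mice each). The log2 fold change of 0.40 had a standard error of 0.59 and a 95% interval from −0.91 to 1.70, and its adjusted p-value from edgeR was 0.935. The log2 fold change was 0.14 without ceAF-1, 0.15 without DSS-1, 0.16 without DSS-5, 0.63 without ceAF-2 and 0.73 without DSS-2.

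*Gfi1b* (ENSMUSG00000026815; chromosome 2, 28499462 to 28511994, reverse strand) encodes a zinc-finger repressor that tuft cells share with the megakaryocyte and erythroid lineages. Its counts were 4, 4, 2, 2 and 1 in DSS-1 to DSS-5 and 2, 1, 8, 1 and 10 in ceAF-1 to ceAF-5. ceAF-3 and ceAF-5 had the most counts, and the other ceAF mice lay within the DSS range. A difference between the groups was not detectable at this depth. Of the 10 megakaryocyte and erythroid markers 5 had enough counts to be tested, each of the 5 was lower after ceAF, the median log2 fold change was −0.34, and 0 had an unadjusted p-value under 0.05.

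The chemosensory chain of tuft cells runs from G-protein-coupled receptors over the taste G-protein subunit gustducin and a phospholipase to a cation channel. Gustducin is encoded by *Gnat3* (ENSMUSG00000028777; chromosome 5, 18167547 to 18224832, forward strand), with counts of 7, 22, 11, 20 and 0 in DSS-1 to DSS-5 and 11, 10, 6, 12 and 15 in ceAF-1 to ceAF-5. The level was 0.41, 1.10, 0.66, 1.28 and 0 CPM in the DSS mice and 0.84, 0.65, 0.33, 0.72 and 0.82 CPM in the ceAF mice. The DSS group held the lowest mouse and the highest mice, and all ceAF mice lay between them. A count of 0 in DSS-5 allows a level of up to 0.183 CPM before TMM scaling, taken as 3 counts, a limit that covers counting error only. The log2 fold change was −0.05 (SE 0.63), and its 95% interval from −1.43 to 1.34 leaves room for a difference of either sign.

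*Plcb2* (ENSMUSG00000040061; chromosome 2, 118537998 to 118558919, reverse strand) encodes the phospholipase C of taste transduction, which blood cells also make. Its level was 8.58, 7.0, 6.35, 6.34 and 2.40 CPM in DSS-1 to DSS-5 and 3.82, 5.99, 6.03, 4.77 and 8.25 CPM in ceAF-1 to ceAF-5. DSS-5 was the lowest mouse and DSS-1 the highest, with the ceAF group between them. The log2 fold change of −0.09 had a standard error of 0.32 and a 95% interval from −0.78 to 0.61.

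*Trpm5* (ENSMUSG00000009246; chromosome 7, 142622890 to 142648379, reverse strand) encodes the calcium-activated cation channel at the end of the chain. Its counts were 29, 139, 43, 107 and 7 in DSS-1 to DSS-5 and 105, 62, 57, 71 and 56 in ceAF-1 to ceAF-5. This was 1.68, 6.95, 2.57, 6.85 and 0.42 CPM in the DSS mice and 8.01, 4.04, 3.13, 4.24 and 3.08 CPM in the ceAF mice. DSS-2 and DSS-4 were near the highest ceAF mouse, and DSS-1, DSS-3 and DSS-5 were below every ceAF mouse. The highest DSS mouse had 16.5 times the level of the lowest, against 2.60 times in the ceAF group, and 4.13 times when DSS-5 with its 7 counts was left out. The means were 3.70 ± 3.02 and 4.50 ± 2.03 CPM (SD, n = 5 mice each). The log2 fold change was 0.28 (SE 0.60), and edgeR gave 0.959 as the adjusted p-value.

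Of 23 further taste transduction genes, 7 had enough counts to be tested, 4 of them higher and 3 lower after ceAF, with 0.10 as the median log2 fold change and 0 at an unadjusted p-value under 0.05. The most abundant were *Gnb1*, a widely expressed G-protein subunit at a median of 103.9 FPKM, and *Itpr3*, the receptor that releases calcium downstream of the phospholipase, at 22.0 FPKM. The sweet receptor gene *Tas1r2*, the regulator gene *Rgs21* and the bitter receptor genes *Tas2r118*, *Tas2r126* and *Tas2r138* had a count of 0 in every mouse.

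*Avil* (ENSMUSG00000025432; chromosome 10, 126836578 to 126856863, forward strand) encodes advillin, an actin-binding protein of the tuft of microvilli that also occurs in sensory neurons. Its level was 5.91, 6.60, 4.13, 4.74 and 4.08 CPM in DSS-1 to DSS-5 and 6.18, 5.14, 4.77, 8.35 and 8.96 CPM in ceAF-1 to ceAF-5. ceAF-4 and ceAF-5 were above all other mice, and the other ceAF mice lay within the DSS range. With means of 5.09 ± 1.12 and 6.68 ± 1.89 CPM (SD, n = 5 mice each), *Avil* had a log2 fold change of 0.39, a 95% interval from −0.12 to 0.90 and, from edgeR, 0.759 as its adjusted p-value.

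*Dclk1* (ENSMUSG00000027797; chromosome 3, 55149785 to 55446489, forward strand) encodes a doublecortin-like kinase that binds microtubules and is also made by neurons and stroma. Its level was 18.6, 12.9, 11.4, 12.3 and 7.80 CPM in DSS-1 to DSS-5 and 17.9, 9.37, 7.79, 10.1 and 13.8 CPM in ceAF-1 to ceAF-5. DSS-1 and ceAF-1 were the highest mice, DSS-5 and ceAF-3 were the lowest, and each group spanned nearly the range of the other. The log2 fold change was −0.10 (SE 0.27), with a 95% interval from −0.69 to 0.49.

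*Il25* (ENSMUSG00000040770; chromosome 14, 55170152 to 55173294, forward strand) encodes the tuft cell cytokine. It had 0, 3, 1, 1 and 0 counts in DSS-1 to DSS-5 and 3, 0, 0, 0 and 0 counts in ceAF-1 to ceAF-5. These counts were too few for any comparison of the groups, and no fold change is given.

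*Il17rb* (ENSMUSG00000015966; chromosome 14, 29718092 to 29730853, reverse strand) encodes the receptor subunit that binds interleukin-25, which tuft cells carry along with innate lymphoid cells. Its level was 1.62, 2.45, 2.46, 3.52 and 0.90 CPM in DSS-1 to DSS-5 and 4.35, 3.52, 2.52, 2.74 and 4.62 CPM in ceAF-1 to ceAF-5. Every ceAF mouse was above DSS-1, DSS-2, DSS-3 and DSS-5, whereas DSS-4 lay within the ceAF range. The share of counts on mitochondrial genes was 5.34, 5.34, 5.45, 6.54 and 5.06% in DSS-1 to DSS-5 and 9.66, 5.64, 4.53, 7.24 and 9.74% in ceAF-1 to ceAF-5, so that the ceAF mice with the most *Il17rb*, ceAF-5 and ceAF-1, also had the highest share, whose part in the result was not tested. The means were 2.19 ± 0.99 and 3.55 ± 0.93 CPM (SD, n = 5 mice each). Among the 7 genes tested *Il17rb* had the largest log2 fold change, 0.69, with a standard error of 0.34 and a 95% interval from −0.05 to 1.44. From edgeR its p-value was 0.0648 before adjustment and 0.734 after it, and the exact two-sided permutation test gave an unadjusted p-value of 0.0476. The unadjusted p-value in edgeR was 0.0202 without DSS-4 and 0.0476 without ceAF-3, and 0.0424 with DESeq2's Wald test. Over the 19 alternatives the adjusted p-value ranged from 0.551 to 1.00.

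**Figure D1:**
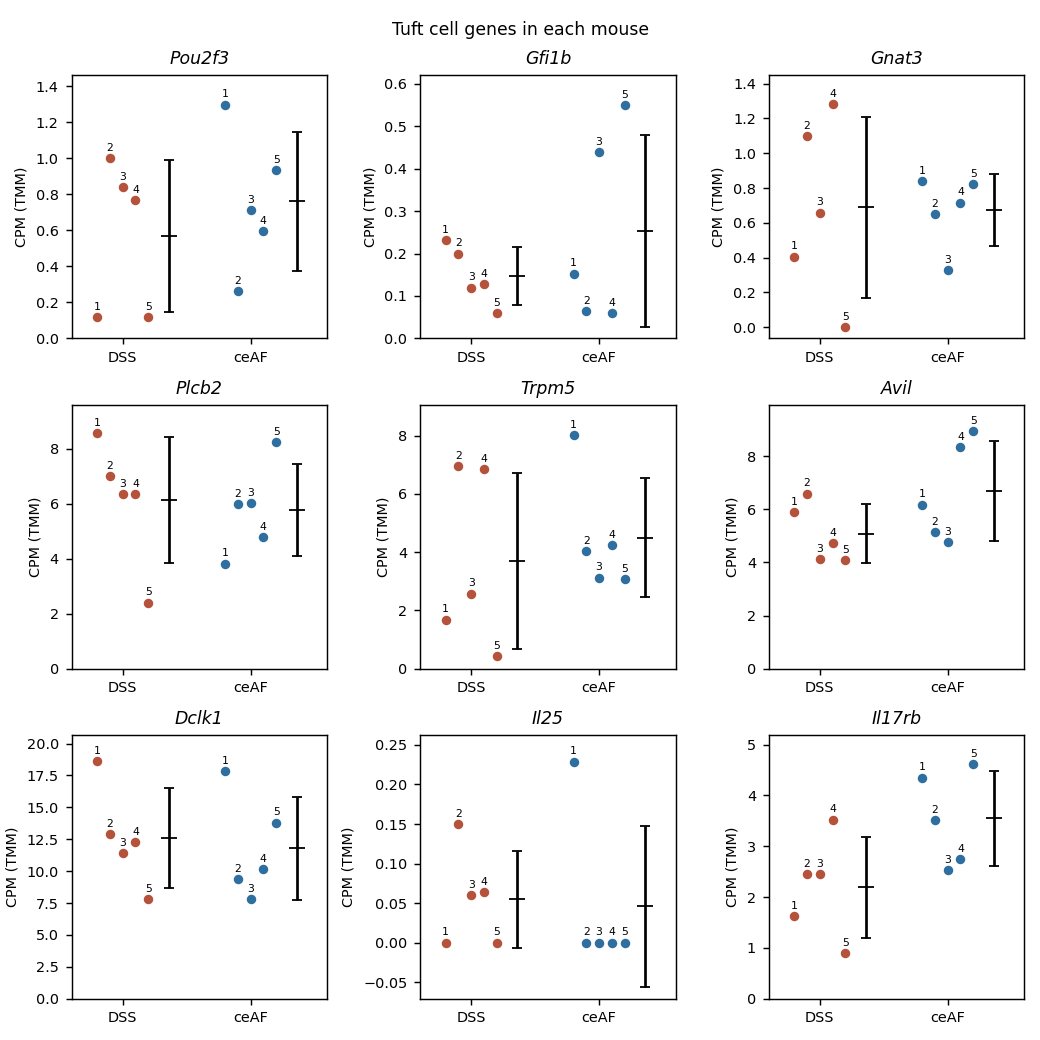
TMM-normalized CPM of the 9 tuft cell genes in each mouse, with the DSS group in red and the ceAF group in blue, the mouse number above each point, and the mean with SD as black bars (n = 5 mice each). The groups overlap in every panel, and DSS-5 has the lowest level of *Trpm5*, *Gnat3*, *Plcb2*, *Il17rb* and *Avil*.

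**Figure D2:**
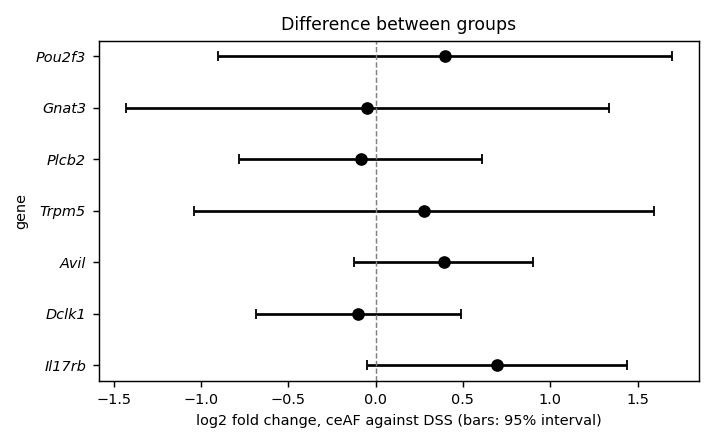
Log2 fold change of the 7 tested tuft cell genes in the ceAF group against the DSS group from edgeR, with 95% intervals as bars. Every interval includes 0, and that of *Il17rb*, from −0.05 to 1.44, reaches it by the least.

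The variation between mice was shared by part of the genes. DSS-5 was the lowest of the 10 mice in 5 of the 7 genes tested, *Trpm5*, *Gnat3*, *Plcb2*, *Il17rb* and *Avil*, and the second lowest in *Pou2f3* and *Dclk1*. Over all genes tested DSS-5 was the lowest mouse in 14.3%. This count was made after the values were seen. DSS-1 was low in *Pou2f3*, *Trpm5* and *Il17rb* but had the highest level of *Dclk1* and *Plcb2*. Averaged over the 7 genes, the log2 level minus the mean of the gene over the mice was −0.34, 0.49, 0.02, 0.45 and −1.65 in DSS-1 to DSS-5 and 0.57, −0.04, −0.15, 0.16 and 0.50 in ceAF-1 to ceAF-5. The value of DSS-5 in this mean, and in the correlations of *Gnat3*, depends on the prior count of 1, since DSS-5 had 0 counts of *Gnat3*. By this measure DSS-5 stood below the other mice, and those of the DSS group lay near or within the ceAF range.

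*Trpm5* and *Gnat3* were the most alike pair, with a Pearson correlation of log2 CPM over the 10 mice of 0.92 (Spearman 0.78), given as a measure of likeness without a test and 0.75 when DSS-5 was left out. *Trpm5* and *Pou2f3* had a correlation of 0.77, and 0.65 without DSS-5. *Trpm5* and *Plcb2* were unlike, since their correlation of 0.42 became −0.60 without DSS-5. *Trpm5* and *Dclk1* had a correlation of 0.39, which was 0.03 without DSS-5 and 0.74 without DSS-1 and ceAF-3, the mice farthest from the median of *Dclk1*.

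Over all genes tested, the 10 whose log2 CPM was most like the mean of the tuft cell genes over the 10 mice included 3 further tuft cell genes. *Sh2d6*, an adaptor gene of tuft cells, came first with a Pearson correlation of 0.99, and 0.92 without DSS-5 and ceAF-1, the mice farthest from the median. *Rgs13*, a regulator of G-protein signalling, had 0.97, and 0.84 without these mice, and *Sh2d7*, which encodes a relative of the *Sh2d6* protein, had 0.95 and 0.71. The level of *Sh2d6* was 2.03, 8.05, 4.73, 8.77 and 0.30 CPM in DSS-1 to DSS-5 and 11.1, 4.10, 4.55, 5.37 and 6.71 CPM in ceAF-1 to ceAF-5. Its lowest mice, DSS-5 and DSS-1, and its highest, ceAF-1, were also those of *Trpm5*. Others among the 10 were *Smad6*, *Gm15541*, *Zfp362*, *C2cd5*, *Fbp1* and *1700110K17Rik*, with correlations from 0.93 to 0.96, and from 0.65 to 0.84 without DSS-5 and ceAF-1.

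Taken gene by gene, *Trpm5* and *Gnat3* shared *Sh2d7*, and the tuft cell genes otherwise had different nearest genes. For *Trpm5* these included *Sh2d7* (0.97) and *Sh2d6* (0.96), and for *Gnat3* they were *Smad6* (0.97), *Sh2d7* (0.96) and *Rgs13* (0.95). For *Pou2f3* they were *Gm45727* (0.97) and the carboxylesterase genes *Ces1g* (0.95) and *Ces1f* (0.95). *Gm45727* was at 0 CPM in DSS-1 and DSS-5, where its log2 level is set by the prior count. Its correlation was 0.94 without DSS-5 and DSS-1, the mice farthest from the median of *Pou2f3*. For *Pou2f3* and the other 4 genes, no gene of the tuft cell lists was among the nearest. For *Plcb2* they were *Bhlhe41* (0.97), *Trpv4* (0.95) and the leukocyte kinase gene *Pik3cg* (0.95), and for *Dclk1* *S100pbp* (0.96), *Rpl17-ps5* (0.95) and *Armc5* (0.94). *Avil* had *Gm28229* (0.91), *Mettl5* (0.91) and *Rnaseh1* (0.91), and *Il17rb* had *Lmntd2* (0.94), *Ppp4r1l-ps* (0.93) and *1700110K17Rik* (0.93).

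**Figure D3:**
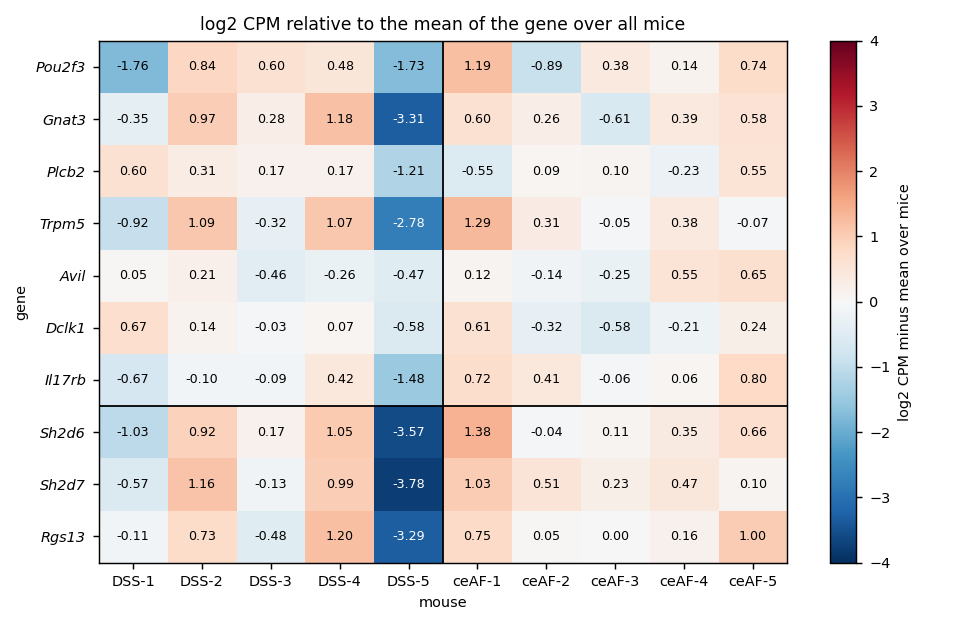
Log2 CPM of the 7 tested tuft cell genes (above the line) and of *Sh2d6*, *Sh2d7* and *Rgs13* (below it) in each mouse, minus the mean of the gene over the 10 mice, with values printed in the cells and a line between the DSS and ceAF groups. DSS-5 is at −2.78 for *Trpm5* and −3.57 for *Sh2d6*, but at −0.58 for *Dclk1*, and its cell for *Gnat3*, with 0 counts, is set by the prior count of 1.

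A wider list of 40 tuft cell genes without the 9 had 38 found by symbol and 32 with enough counts. After ceAF 11 were higher and 21 lower (20 lower with upper quartile scaling), the median log2 fold change was −0.14, and at an unadjusted p-value under 0.05 there were 0 higher and 1 lower. DSS-5 was the lowest mouse in 16 of the 32. The most abundant of the list were *Atp2a3*, a calcium pump gene, and *Cd24a*, at medians of 170.3 and 91.3 FPKM, both also made by other cells. *Atp2a3* was not low in DSS-5, at 976.7 CPM against 622.8 to 948.2 CPM in the other DSS mice.

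The gene at an unadjusted p-value under 0.05 was *Alox5ap*, which encodes the 5-lipoxygenase-activating protein of leukotriene synthesis and is also made by neutrophils. Its level was 75.5, 3.30, 9.52, 5.32 and 3.24 CPM in DSS-1 to DSS-5 and 2.06 to 4.69 CPM in the ceAF group, so that DSS-1 stood far above the other mice. DSS-1 was also the highest mouse in 5 of the 6 neutrophil markers tested, the exception being *Ly6g* with 482.0 CPM in DSS-5 and 228.7 CPM in DSS-1. All 6 were lower in the ceAF group and 5 had an unadjusted p-value under 0.05. Their summed level was 1748, 123.3, 296.3, 200.9 and 549.3 CPM in DSS-1 to DSS-5 and 21.1, 249.1, 184.3, 129.7 and 212.5 CPM in ceAF-1 to ceAF-5, with *Ly6g* the most abundant on the FPKM scale and *Elane* at 0 in every mouse. *Ly6g* made up most of this sum in every mouse except DSS-1 (228.7 CPM) and DSS-3 (128.4 CPM). In the other mice, among them DSS-5 (482.0 CPM) and ceAF-2 (237 CPM), the sum is therefore mainly the level of *Ly6g*. In the mean log2 level relative to all mice, DSS-3 (1.995) lay above DSS-5 (0.635), unlike in the sum. The part of the neutrophil markers in the level of *Alox5ap*, *Plcb2* and *Dclk1* in DSS-1 was not tested.

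Relative to the epithelium DSS-5 was the lowest mouse in the sum of the tuft cell genes and in *Trpm5*, *Gnat3*, *Il17rb* and *Plcb2*, but not in *Avil*, *Dclk1* or *Pou2f3*. The summed level of 12 epithelial markers, with the keratin gene *Krt8* the most abundant, was 16337, 17731, 17160, 20151 and 14561 CPM in DSS-1 to DSS-5 and 18389, 19042, 18290, 16385 and 16989 CPM in ceAF-1 to ceAF-5. DSS-5 had the least, but by a far smaller margin than for *Trpm5*. The level of *Trpm5* per 1000 CPM of these markers was 0.10, 0.39, 0.15, 0.34 and 0.03 CPM in DSS-1 to DSS-5 and 0.44, 0.21, 0.17, 0.26 and 0.18 CPM in ceAF-1 to ceAF-5. The log2 ratio of the summed level of the 9 genes to that of the epithelial markers was −8.78, −8.85, −9.23, −9.13 and −9.85 in the DSS mice and −8.75, −9.36, −9.47, −9.02 and −8.69 in the ceAF mice. The other DSS mice lay within the ceAF range. The mean ratio was higher by 0.11 in the ceAF group, and by 0.44 when *Dclk1* and *Plcb2* were left out of the sum, with no test of either. Without DSS-5, left out after the values were seen, these differences were −0.061 and 0.24.

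The other epithelial lineages differed in where DSS-5 stood. The enteroendocrine markers summed to 128.8, 219.6, 200.9, 304.1 and 340.6 CPM in DSS-1 to DSS-5, so DSS-5 was the highest mouse in this sum. In mean log2 level DSS-4 and DSS-5 were both at 0.42 relative to all mice. Of the 12 enteroendocrine markers tested 5 were higher and 7 lower in the ceAF group. *Rfx6* was the gene at an unadjusted p-value under 0.05, higher by a log2 fold change of 0.71. The goblet markers summed to 11803 CPM in DSS-5 and 5424 CPM in ceAF-1, the lowest mouse, and 1 of 8 was higher and 7 were lower, *Tff3* at 0.0386 as its unadjusted edgeR p-value. DSS-5 and ceAF-4 had the lowest mean log2 level of the colonocyte markers, both at −0.40 relative to all mice. The sum of these markers in DSS-5, 8696 CPM, was above those of DSS-1 (7638 CPM), ceAF-4 (6509 CPM) and ceAF-5 (7783 CPM), so its place depended on the measure. DSS-5 was the lowest mouse in 3 and the highest in 2 of these 8 markers, and the lowest in 2 and the highest in 2 of the 9 crypt markers tested. Of the colonocyte markers 3 of 8 were higher and 5 lower, and of the crypt markers 4 of 9 were higher and 5 lower, with *Axin2* the gene at an unadjusted p-value under 0.05, higher by 0.64. The epithelial markers themselves had 5 of 12 higher and 7 lower, and their median log2 fold change was −0.01.

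The libraries also differed in genes whose level changes along the colon, and the labels name colon without a segment. *Hoxb6* was at 1.28, 25.3, 36.6, 22.4 and 0.96 CPM in DSS-1 to DSS-5 and 91.0, 0.85, 17.4, 2.98 and 0.88 CPM in ceAF-1 to ceAF-5. *Hoxb13* was at 76.3, 95.2, 93.0, 111.6 and 206.4 CPM in the DSS mice and 6.18, 214.8, 149.2, 10.2 and 184.6 CPM in the ceAF mice. The colonocyte gene *Car1*, a carbonic anhydrase gene and the most abundant colonocyte marker, was at 1118, 4653, 7774, 4956 and 114.8 CPM in DSS-1 to DSS-5 and 11922, 813.9, 3344, 753.0 and 505.3 CPM in ceAF-1 to ceAF-5. ceAF-1 was the highest mouse and DSS-5 among the lowest in *Hoxb6* and *Car1*, as they were in *Trpm5*, whereas ceAF-2 had less *Hoxb6* than DSS-5 and 4.04 CPM of *Trpm5*. *Hoxb6* was chosen for mention after its values were seen. Of the 9 position genes found 8 were tested, 6 of them higher (7 with upper quartile scaling) and 2 lower. *Hoxd13* was higher by a log2 fold change of 2.91, with 0.0369 as its unadjusted edgeR p-value, and was at 121.3 and 108.6 CPM in ceAF-2 and ceAF-3, 0 to 7.25 CPM in the other ceAF mice and 1.47 to 10.5 CPM in the DSS mice. The part of position in the levels of the tuft cell genes was not tested.

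The type 2 circuit that tuft cells feed had 21 of 31 genes with enough counts, 6 of them higher and 15 lower in the ceAF group. The median log2 fold change was −0.26, and 0 were higher and 2 lower at an unadjusted p-value under 0.05. These 2 were the alarmin gene *Il33*, with a log2 fold change of −1.27 and a standard error of 0.56, and the eotaxin gene *Ccl11*, with −1.06 and 0.43. *Il33* was at 16.9 CPM in DSS-1, 2.05 to 7.06 CPM in the other DSS mice and 1.22 to 4.71 CPM in the ceAF mice, and *Ccl11* was also highest in DSS-1, at 5.33 CPM. DSS-1 was the highest mouse in 11 of the 21 genes, and ceAF-1 was the lowest in 11. The count of lower genes rested in part on DSS-1. *Il7r* was at 17.8 CPM there and at 3.12 to 5.57 CPM in the other DSS mice, against a ceAF mean of 5.59 CPM. *Il13*, the cytokine that drives tuft and goblet cell numbers, had a count of 0 in every mouse. Taken as 3 counts, this allows up to 0.204 CPM before TMM scaling in ceAF-1, the library with the fewest counts, or 0.229 CPM after it. The most abundant of the list on the FPKM scale were *Retnlb*, a goblet cell product that type 2 cytokines induce, at a median of 190.1, and the receptor gene *Il13ra1* at 52.1. *Retnlb* was at 152.0, 153.7, 168.6, 238.2 and 71.3 CPM in DSS-1 to DSS-5 and 123.3, 38.1, 66.3, 178.6 and 29.5 CPM in ceAF-1 to ceAF-5. The groups overlapped, and its log2 fold change of −0.85 had a standard error of 0.48.

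Markers of other cell types, some of which also make *Plcb2*, *Dclk1* or *Avil*, were mostly lower in the ceAF group. All 8 T-cell markers were lower, 7 of them at an unadjusted p-value under 0.05, among them *Cd8a*, the most abundant. All 8 B-cell and all 8 macrophage markers were lower, 0 and 2 of them at that limit, as were 3 of 4 tested mast cell and basophil markers, 1 of them, *Hdc*, at that limit. *Hdc* was at 150 CPM in DSS-1, against 1.02 to 13.1 CPM in the other DSS mice and 0.55 to 3.78 CPM in the ceAF mice. It was the only tested marker of that list with its highest level in DSS-1, and the log2 fold changes of the others were −0.22 to 0.01. The neuron and glia markers had 2 of 10 higher and 8 lower, and the 8 smooth muscle and 8 fibroblast markers were all lower (7 of 8 smooth muscle markers with upper quartile scaling), with 0 at that limit in each of these lists. DSS-1 was the highest mouse in 8 of 8 B-cell, 8 of 8 macrophage, 7 of 8 fibroblast and 6 of 10 neuron and glia markers, as it was in *Dclk1* and *Plcb2*. ceAF-1 was the lowest mouse in 8 of 8 macrophage, 8 of 8 fibroblast and 6 of 8 B-cell markers, and it had the second highest level of *Dclk1* and the second lowest of *Plcb2*. DSS-5, the lowest mouse in *Plcb2*, lay within the ceAF range in the summed level of the T-cell markers. This sum was 100.1, 115.7, 107.5, 117.1 and 43.4 CPM in DSS-1 to DSS-5 and 25.3 to 52.5 CPM in the ceAF mice. The neuron and glia markers summed to 120.4, 47.9, 77.5, 39.4 and 56.4 CPM in DSS-1 to DSS-5 and 79.4, 57.5, 41.0, 82.0 and 57.9 CPM in ceAF-1 to ceAF-5, and in their mean log2 level ceAF-1 (0.56) came second to DSS-1 (0.88). Their part in these genes was not tested.

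A search for a sequence shared by the promoters used the octamer ATGCAAAT that POU factors bind, on both strands, in RefSeq promoters of GRCm38.p6 that run from 250 bases before to 50 bases after the start of a gene. Promoters were given for 7 of the 9 genes, 8 promoters in all, since *Dclk1* has 2, and not for *Pou2f3* and *Il25*. The octamer had 0 matches in the 8 promoters, against 570 of 32851 promoters of the same length, or 1.74%. The absence of a match says no more than that these letters are not in this window. The first 7 letters, ATGCAAA, which were searched only after the whole octamer and lie within it, matched 1 of the 8 promoters on either strand, against 4.63% of all promoters. This was *Avil*, with matches that begin at positions −115 and −15 from the start of the gene, the first on the opposite strand. The promoter of *Avil* (chr10:127000459-127000758, forward strand) is shown with these letters in capitals, beside those of *Trpm5* (chr7:143094593-143094892, reverse strand) and *Gnat3* (chr5:17962320-17962619, forward strand), the pair of genes with the most alike levels, which hold neither and are shown without capitals.
Avil: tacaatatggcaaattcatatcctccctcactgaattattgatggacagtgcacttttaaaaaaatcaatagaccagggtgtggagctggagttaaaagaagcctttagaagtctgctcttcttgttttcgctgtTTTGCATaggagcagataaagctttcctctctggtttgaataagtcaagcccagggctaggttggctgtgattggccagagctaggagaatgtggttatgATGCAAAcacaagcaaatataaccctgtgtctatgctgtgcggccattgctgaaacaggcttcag
Trpm5: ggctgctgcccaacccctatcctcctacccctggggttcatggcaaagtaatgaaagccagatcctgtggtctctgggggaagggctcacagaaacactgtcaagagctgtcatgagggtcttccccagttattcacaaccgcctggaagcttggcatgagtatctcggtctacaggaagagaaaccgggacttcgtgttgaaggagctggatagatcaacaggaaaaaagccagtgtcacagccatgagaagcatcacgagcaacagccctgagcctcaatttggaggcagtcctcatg
Gnat3: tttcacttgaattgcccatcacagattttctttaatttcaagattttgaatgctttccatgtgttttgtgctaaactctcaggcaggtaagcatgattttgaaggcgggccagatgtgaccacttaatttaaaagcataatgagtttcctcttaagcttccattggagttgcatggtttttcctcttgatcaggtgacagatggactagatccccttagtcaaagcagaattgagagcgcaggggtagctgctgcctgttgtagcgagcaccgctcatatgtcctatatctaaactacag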

How the data were processed

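RNA of colon from 10 mice was analysed. The authors deposited a table of unnormalized read counts, 1 count per gene and mouse. The FPKM values that the authors deposited beside each count equal that count divided by exonic length and library total within 0.0051, about their rounding to 2 decimals. The submitters' processing notes name cutadapt 1.9.1 and HISAT2 2.2.1. The counting tool and the genome build are not given in the sources used here. Symbols, positions and exonic lengths were taken from the deposited table, and its gene ontology and pathway columns were not used.

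Genes were kept by filterByExpr (minimum count 10), scaled by TMM and compared with the quasi-likelihood test of edgeR 4.0.16 in R 4.3.3, two-sided, with Benjamini-Hochberg adjustment over 16545 genes. Log2 levels used a prior count of 1. DESeq2 1.42.0 and limma 3.58.1 were used as alternatives. Exact permutation tests were two-sided.

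The members and the other gene lists were chosen with earlier results of these data known. The genes named were drawn from the 9 members, from every other list at most 6 genes with an unadjusted p-value under 0.05 and the 2 most abundant, the 10 genes most like the members' mean and 3 per tested member, ranked by Pearson correlation of log2 CPM. From the other lists a part of these genes is named, and 1 gene is not reported here. *Pou2af2*, *Pou2af3* and *Prac1* were not matched by symbol and were not analysed here. Alternatives were other normalizations, tests, filters, FPKM with pseudocounts of 1 and 0.1 (with mean FPKM minimums of 0.5 and 0.1), the replicate number as a block, and leaving out each mouse. Plots were made in Python 3.11.15 (matplotlib 3.10.9).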

Additional observations from a re-analysis of the deposited data

Results flagged for a closer look

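For 24 sets of 5 mice, the distance of the highest or lowest mouse to the next was taken as a share of the whole range, and 3 exceeded 0.71, the limit for 5 samples, where chance passes about 1 in 20 such sets, or 1.2 of 24. The values were log2 levels of the 7 tested genes, their mean, their ratio to the epithelial markers and 3 list means. In the ceAF group, ceAF-3 was below the other mice in *Gnat3* (0.719 of the range), on 6 counts. The 95% counting interval of these 6 counts was 2.2 to 13.1. The 11, 10, 12 and 15 counts of ceAF-1, ceAF-2, ceAF-4 and ceAF-5 came from smaller libraries, so they cannot be set directly against this interval. In the DSS group, DSS-5 was far below the others in *Plcb2* (0.761). DSS-1 was far above the other DSS mice in the mean log2 level of the type 2 genes (0.812).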

How the results depend on the processing

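In 19 alternatives, 0 tuft cell genes passed an adjusted p-value of 0.05. The count over all genes, 0 with edgeR, was 26 with DESeq2, 1 with limma-trend on FPKM plus 1 (15636 genes with a mean FPKM of at least 0.5), 5 on FPKM plus 0.1 (21445 genes, at least 0.1), and 0 to 3 when each mouse was left out, with 3 without DSS-5. The count of tuft cell genes at an unadjusted p-value under 0.05 was 1 with DESeq2 and 0 to 1 with each mouse left out, 1 without DSS-4 or ceAF-3. The median log2 fold change was 0.13 with FPKM plus 1, where 5 tuft cell genes were tested, and 0.37 with the replicate block, although mice of the same number were no more alike than others (correlations −0.25, −0.14, −0.0043, −0.16 and 0.29), and 0.00043 to 0.52 with each mouse left out. *Gnat3* changed sign to 0.28 with FPKM plus 0.1 and to 0.17 with the replicate block, and ranged from −0.35 to 0.28 with each mouse left out. Left out in turn, mice also turned *Dclk1* (−0.29 to 0.09), *Plcb2* (−0.27 to 0.073) and *Trpm5* (−0.031 without ceAF-1, to 0.65). *Pou2f3*, *Avil* and *Il17rb* were higher in the ceAF group under every alternative that tested them, 17 for *Pou2f3* and 19 for *Avil* and *Il17rb*. *Pou2f3* was higher by 0.14 to 0.73 with each mouse left out, and *Avil* and *Il17rb* by 0.22 and 0.30 with FPKM plus 1, where *Pou2f3* was not tested. *Trpm5* was higher by 0.65 with the replicate block, 0.50 with FPKM plus 0.1 and 0.13 with FPKM plus 1. The mean log2 ratio to the epithelial markers, higher by 0.11 after ceAF, differed by −0.061 to 0.21 with each mouse left out, runs that were added after seeing the data. The fits without a mouse have fewer samples, and the cause of the other shifts was not tested. Counts of 0 to 22 per mouse limit *Gnat3* and *Pou2f3*.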
